A study of Mus musculus with 9 samples.

Results

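Long-term haematopoietic stem cells of mice with 1 mutant Jak2 allele were compared with those of wild-type controls across all named genes. The comparison used 6 of the 9 arrays of the study, 3 from MxCre Jak2VF/+ mice (Jak2VF) and 3 from WT (control) mice (WT), chosen by the genotype in their labels. It covered 22180 genes, each read by 1 probe set that the platform annotation ties to a single gene symbol. All mice were C57BL/6 and all, the controls included, were 4 weeks old when they were injected with 300 µg pI-pC 5 times, and marrow was taken 12 weeks later. Cells were sorted as Lin-Sca-1+c-kit+CD34-CD135-. The other 3 arrays came from MxCre Jak2VF/+ EZH2-/- mice treated in the same way (Jak2VF_Ezh2KO) and entered the estimate of the spread and the mean signal over 9 arrays, by which probe sets were chosen and genes called brighter. Their values are given only where named. The labels call the 3 samples of a genotype biological replicates.

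JAK2 is the tyrosine kinase that carries signals from the receptors for erythropoietin, several other cytokines and interferon-gamma to STAT transcription factors. The VF allele replaces a valine with phenylalanine in the pseudokinase domain, which releases the kinase from its own inhibition, and it is the most common driver mutation of polycythaemia vera and related myeloproliferative neoplasms. MxCre is a Cre recombinase under the Mx1 promoter, which interferon switches on, and pI-pC is a double-stranded RNA analogue that provokes interferon. Mx1 responds in many cell types, so recombination under it is not limited to stem cells. The sources used here do not state MxCre for the control mice, and the mutant allele and the transgene cannot be told apart in this comparison. Long-term stem cells are largely quiescent cells at the top of the blood hierarchy, and a part of them is known to carry megakaryocyte genes.

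The deposited values are log2 signals, and levels of different genes are not compared here because each probe set has its own response. Median signals lay between 5.51 and 5.65 on the Jak2VF arrays and between 5.58 and 5.67 on the WT arrays. Over 1394 odorant and pheromone receptor genes, a class that is silent in blood cells, the signal averaged 4.31, 3.83 and 3.92 on the Jak2VF arrays and 4.22, 3.87 and 4.32 on the WT arrays, so this level differed between arrays within both genotypes. Because probe sets respond unequally, the sorted cells' identity was not judged from the levels of their markers, which were compared between genotypes only. Of 9 stem cell markers measured, 3 lay apart, all lower in Jak2VF, and of 7 lineage markers that the gate keeps out 0 lay apart. Kit, the receptor used as a positive marker, read 9.80, 9.97 and 9.76 in Jak2VF, against 9.52, 10.00 and 9.78 in WT. Cd34, whose protein the gate excludes, read 10.38, 10.52 and 10.68 in Jak2VF and 10.19, 10.57 and 10.19 in WT. Flt3, which encodes the excluded CD135, read 7.10, 7.48 and 8.01 in Jak2VF and 7.34, 7.64 and 6.91 in WT. The genotypes overlapped in all 3 of these genes. RNA was taken from whole sorted populations, so for every result a different share of cells of some type and a different amount of RNA per cell cannot be told apart.

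No single gene passed the test of Jak2VF against WT, and what follows describes how the values of individual genes and of groups of genes were arranged over the arrays. With limma over 22180 genes, 0 genes had an adjusted p under 0.05 (0%), and the smallest adjusted p was 0.308, shared by 9 genes. Before adjustment, 1034 genes (4.66%) had a p under 0.05, of which 632 were higher in Jak2VF (2.85% of all genes) and 402 lower (1.81%). All 3 Jak2VF arrays lay above all 3 WT arrays for 786 genes (3.54%) and below them for 569 (2.57%). These percentages are the background for every count of list members that follows. The lists were chosen with earlier results of these data known, so a count above this background is not independent evidence of a difference. The 4.66% is no more than an unadjusted threshold of 0.05 passes when no gene differs. Likewise, 3 arrays can lie apart from 3 others without any difference between genotypes. These counts over all genes are therefore not evidence of a difference. The difference was positive for 55.8% of all genes, with a median of 0.03. Over the 11090 genes above the median signal it was positive for 68.5%, with a median of 0.09. Both shares are the background for the positive differences of the lists. Among the 11090, 514 were higher and 144 lower at an unadjusted p under 0.05. The counts depended on single arrays. They were 1466 higher and 904 lower without WT replicate 2, 1031 and 627 without Jak2VF replicate 1, 336 and 256 without WT replicate 1, and 406 and 363 without WT replicate 3.

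Differences of at least 1 log2 unit, or a doubling of signal, were seen for 43 genes towards higher signal in Jak2VF and for 53 towards lower signal. In 28 of the 43 and 14 of the 53 the genotypes did not overlap. For comparison, the median standard deviation among replicates of a gene was 0.21 in Jak2VF and 0.20 in WT, and the median standard error of a difference was 0.18.

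**Figure D1:**
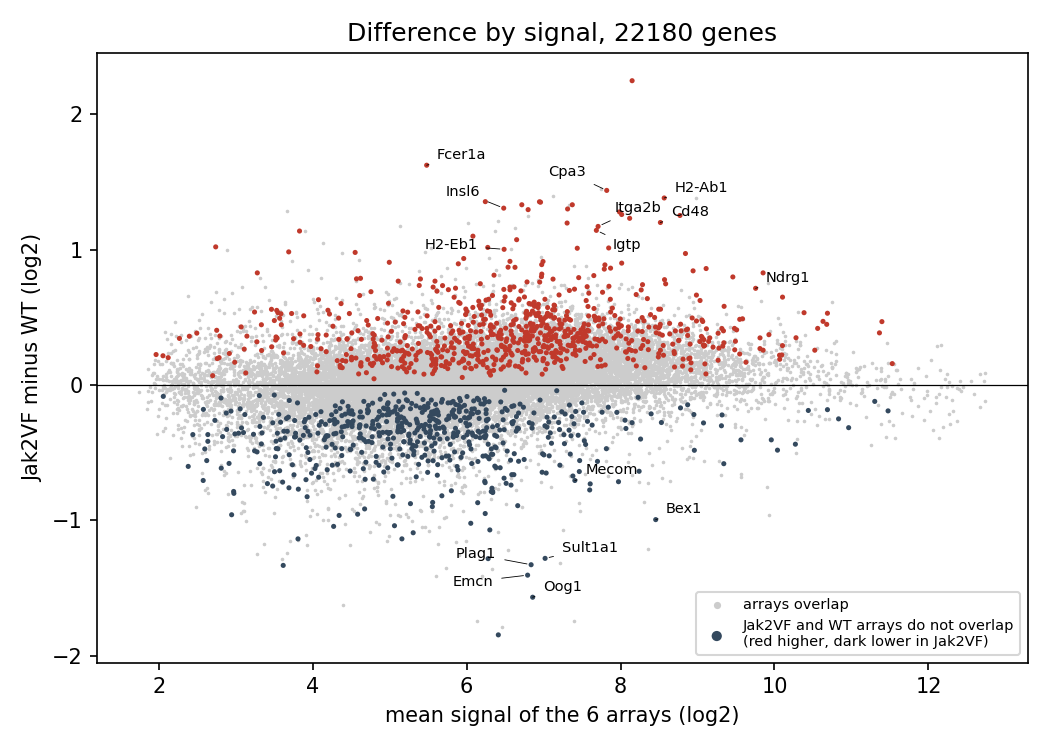
Difference between Jak2VF and WT (log2, vertical axis) against the mean signal of the 6 arrays (log2, horizontal axis) for 22180 genes, each a dot. Coloured dots are genes whose arrays do not overlap between genotypes, 786 higher (red) and 569 lower (dark) in Jak2VF, and grey dots are the others. The labelled genes are examples from the text.

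Itga2b had one of the clearest separations. It encodes integrin alpha-IIb, also known as CD41, a subunit of the platelet fibrinogen receptor that is also found on part of the stem cells. Its signal was 8.07, 8.51 and 8.31 in Jak2VF, against 6.86, 7.41 and 7.10 in WT. The lowest Jak2VF array lay above the highest WT array, and the difference of 1.17 (SE 0.19) corresponds to 2.25-fold (limma, adjusted p = 0.308). Plag1, a zinc finger transcription factor gene of the imprinted growth network, was lower instead, with 6.23, 6.14 and 6.15 in Jak2VF and 7.48, 7.33 and 7.69 in WT. The Jak2VF arrays were almost equal and more than 1 unit below every WT array, a difference of -1.33 (SE 0.20), so that WT was 2.51-fold higher (limma, adjusted p = 0.308).

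The same smallest adjusted p was reached by Igtp, H2-Eb1 and Bex1 and by genes of classes that were counted but not named. Bex1, a small protein of the brain-expressed X-linked family, read 8.19, 7.89 and 7.80 in Jak2VF, against 8.83, 8.83 and 9.21 in WT. No array overlapped, and the difference was -0.99 (SE 0.16). Sult1a1, a phenol sulfotransferase that is often listed among stem cell genes, read 6.04, 6.31 and 6.78 in Jak2VF and 7.52, 7.45 and 8.004 in WT, a difference of -1.28 (SE 0.21; limma, adjusted p = 0.319). Emcn, the sialomucin endomucin of stem and endothelial cells, read 6.43, 5.92 and 5.92 in Jak2VF and 7.43, 7.63 and 7.43 in WT, with every Jak2VF array well below every WT array. The difference for Emcn was -1.40 (SE 0.26; limma, adjusted p = 0.589).

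Among the JAK-STAT pathway genes the kinase gene itself differed little. Jak2 read 8.23, 8.52 and 8.11 in Jak2VF, against 7.91, 8.11 and 8.09 in WT. The difference of 0.25 (SE 0.15) came with a narrow overlap, since Jak2VF replicate 3 reached only the level of WT replicate 2, and the signal does not tell the mutant transcript from the normal one. Over 46 measured genes of the pathway, 34 differences were positive and 12 negative, with a median of 0.13. In 3 of them the Jak2VF arrays lay above the WT arrays and in 0 below.

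The pathway members that stood apart were receptors and a feedback inhibitor. Csf2rb2, the second beta chain that mice have for the interleukin-3 receptor, read 7.13, 7.02 and 7.996 in Jak2VF and 6.02, 6.57 and 5.57 in WT. Its difference was 1.33 (SE 0.35), or 2.52-fold, with Jak2VF replicate 3 the highest array. Csf2rb, the beta chain shared by the receptors for interleukin-3, interleukin-5 and GM-CSF, read 7.53, 6.89 and 7.07 in Jak2VF and 6.59, 6.72 and 6.64 in WT. Here too no array overlapped, with a difference of 0.51. Stat3 averaged 0.38 more and Ifngr2, a chain of the interferon-gamma receptor, 0.51 more in Jak2VF, both with overlapping arrays, whereas Epor, the erythropoietin receptor gene, differed by 0.03 and Csf3r, the G-CSF receptor gene, by 0.38, again with overlap.

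Genes known as direct targets of STAT5 or STAT3 had more positive than negative differences. The positive share of 71.0% was near the 68.5% of genes above the median signal. Over 31 measured targets, 22 differences were positive and 9 negative, with a median of 0.12, and in 4 the Jak2VF arrays lay above the WT arrays and in 0 below. Pim1, a survival kinase, read 7.69, 8.22 and 8.07 in Jak2VF and 6.76, 7.69 and 6.90 in WT. Jak2VF replicate 1 met WT replicate 2, and the difference of 0.88 (SE 0.25) on this probe set was 0.31 on the other probe set of the gene. Cish, a feedback inhibitor that is among the most responsive STAT5 targets, read 6.61, 7.59 and 7.43 in Jak2VF and 7.85, 7.46 and 7.17 in WT. Its arrays overlapped with a difference of -0.28 (SE 0.31).

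The other feedback inhibitors of the SOCS family also had small differences. Socs2 differed by -0.19 and Socs1 by 0.00 with overlapping arrays. Socs3 read 6.08, 6.22 and 6.21 in Jak2VF, against 6.01, 5.92 and 5.72 in WT, and all Jak2VF arrays were the higher ones by a small margin, with a difference of 0.29 (SE 0.12) and of 0.49 on its other probe set. Targets with no overlap were Gadd45g, a growth arrest gene, at 0.54, Il4ra, the interleukin-4 receptor chain, at 0.55, and Bcl3, an NF-kB cofactor, at 0.40. The survival gene Bcl2l1 and Myc averaged 0.25 and 0.34 more in Jak2VF, both with overlapping arrays.

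Genes of antigen presentation on MHC class II, the complex that shows peptides to CD4 T cells, were among those with the highest differences. Over 9 measured chains and loading proteins, 8 differences were positive and 1 negative, with a median of 0.51, and in 4 all Jak2VF arrays lay above all WT arrays. H2-Eb1, a beta chain, read 6.69, 7.10 and 7.18 in Jak2VF and 6.11, 5.78 and 6.07 in WT, a difference of 1.0015 (SE 0.16), or 2.002-fold (limma, adjusted p = 0.308). Its replicates lay close together within each genotype.

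H2-Ab1, the beta chain of the I-A molecule, had a larger difference with more spread. It read 8.50, 9.16 and 10.12 in Jak2VF, against 8.10, 7.55 and 7.98 in WT. The Jak2VF arrays covered more than 1.5 units and the difference was 1.38 (SE 0.34), or 2.60-fold. H2-Aa, the partner alpha chain, read 7.23, 7.91 and 8.74 in Jak2VF and 6.74, 6.10 and 7.15 in WT, a difference of 1.30 (SE 0.40). In both chains Jak2VF replicate 3 was the highest array and Jak2VF replicate 1 the lowest of its genotype. H2-DMa, a chain of the peptide exchange factor, read 9.67, 9.88 and 9.83 in Jak2VF and 9.28, 9.32 and 9.33 in WT, a difference of 0.48 (SE 0.19).

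The transcriptional regulators of class II genes had smaller differences. Over 4 of them the median was 0.03, with 2 positive and 2 negative. Ciita, the master activator of class II transcription, read 6.25, 5.92 and 6.72 in Jak2VF, against 6.42, 6.23 and 6.45 in WT, which overlapped fully. Rfx5, a subunit of the factor that binds the X box of class II promoters, differed by -0.04. Class II is also carried by B cells, macrophages and dendritic cells. Of 6 macrophage and dendritic markers, 6 overlapped between genotypes and their differences lay between -0.11 for Siglech and 0.13 for Csf1r. The 33 monocyte, macrophage and dendritic genes had a summed linear signal of 3559 to 4870 in Jak2VF and of 3553 to 4299 in WT, with a median difference of 0.04. In this list 2 lay apart towards higher and 2 towards lower signal. Irf8, a transcription factor of myeloid progenitors, and Tyrobp, a signalling adaptor of myeloid and NK cells, differed by 0.81 and 0.52, and Lst1, a leukocyte transmembrane protein, and Lyz1, a lysozyme, by -0.58 and -0.54. Cd68, a lysosomal protein of macrophages, read 7.31, 7.90 and 7.69 in Jak2VF and 6.33, 7.33 and 7.03 in WT, which overlapped around a difference of 0.74. The 25 B lymphoid genes summed to 2605 to 3943 in Jak2VF and to 2052 to 3157 in WT, with a median of -0.01 and 0 members apart. The part of such cells in the class II values was not tested.

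Class II promoters carry a Y box, the binding site of the NF-Y factor, and the windows of H2-Aa and H2-Eb1 are shown because these genes are among those with the highest differences. The letters CTGATTGG, searched on both strands of the 250 bases before the start, were found in 4 of 10 class II promoters with a RefSeq sequence (40%) and in 850 of 16918 promoters of all genes (5.02%), and they were chosen after the promoters had been read. The 4 were H2-Aa, H2-Eb1, H2-Eb2 and H2-Oa. H2-Eb2 differed by -0.12 and H2-Oa by 0.51, both with overlap, so carriers of the letters were not limited to genes that lay apart. The windows are given 5′ to 3′ on the strand of the gene in GRCm38.p6 from RefSeq, at chr17:34287824-34287933 on the minus strand for H2-Aa and chr17:34305757-34305866 on the plus strand for H2-Eb1, with the match in capitals.
H2-Aa: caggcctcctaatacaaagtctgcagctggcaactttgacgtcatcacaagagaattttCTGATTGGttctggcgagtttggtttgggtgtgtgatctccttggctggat
H2-Eb1: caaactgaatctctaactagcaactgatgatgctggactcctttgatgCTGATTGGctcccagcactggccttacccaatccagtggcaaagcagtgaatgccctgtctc

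The GTPases that interferon-gamma induces against intracellular pathogens come in families, which are given in turn. Over 14 measured, 10 differences were positive and 4 negative, with a median of 0.26, and 6 lay apart towards higher signal in Jak2VF and 1 towards lower signal. All 4 measured immunity-related GTPases (Igtp, Iigp1, Irgm2 and Irgm1) were among the 6. The median of the list relative to its WT mean was 0.257, 0.146 and 0.577 on the Jak2VF arrays. On the WT arrays it was 0.262, -0.151 and -0.224, so the genotypes overlapped at WT replicate 1. Igtp read 7.95, 8.34 and 8.48 in Jak2VF, against 7.18, 7.03 and 7.14 in WT, and the WT arrays lay close together. Its difference was 1.14 (SE 0.19), or 2.21-fold (limma, adjusted p = 0.308).

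Iigp1 had the highest difference of the family and the widest spread. It read 8.18, 8.27 and 9.42 in Jak2VF and 8.07, 7.12 and 6.85 in WT, so that Jak2VF replicate 1 was just above WT replicate 1. The difference was 1.28 (SE 0.37). Irgm2 read 8.43, 8.40 and 9.14 in Jak2VF and 8.03, 8.06 and 7.66 in WT, a difference of 0.74, and Irgm1 read 7.55 on each of the Jak2VF arrays and 7.52, 7.33 and 6.83 in WT, a difference of 0.32. The Jak2VF values of Irgm1 were identical (7.5456, SD 0) and just above the 7.5164 of WT replicate 1. Why they were identical was not tested.

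The guanylate-binding proteins, the other family, were mixed. Gbp7 read 7.95, 7.98 and 8.49 in Jak2VF, against 7.84, 7.59 and 7.38 in WT, a difference of 0.54, and Gbp3 read 6.75, 6.49 and 7.41 in Jak2VF and 6.09, 6.24 and 6.49 in WT, a difference of 0.61. Gbp6 read 4.98, 4.68 and 4.77 in Jak2VF and 5.21, 5.17 and 5.12 in WT, so every Jak2VF array was lower, with a difference of -0.36. Gbp9, Gbp4 and Gbp8 differed by -0.30, -0.30 and -0.14, and Gbp5, Gbp10, Gbp11 and Gbp2b by 0.31, 0.21, 0.14 and 0.00, all with overlap. Members of these families are similar in sequence, and how far a probe set reads its neighbours was not tested.

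The promoters of these GTPases share a sequence. The letters GAAA, any 2 bases and GAAA again, the core of the interferon-stimulated response element, were searched on both strands of the 250 bases before the start, and TTCNNNGAA, the motif that STAT dimers bind, likewise. The first was present in 7 of 7 GTPases with a RefSeq promoter (100%), against 577 of 16918 promoters of all genes (3.41%). TTCNNNGAA was present in 4 of the 7 (57.1%), against 1322 of 16918 (7.81%). The windows of 3 immunity-related GTPases and of Gbp7, all of which lay apart between genotypes, are shown on the strand of the gene in GRCm38.p6 from RefSeq, with this element in capitals, read on the other strand (TTTC, 2 bases, TTTC) in Gbp7. They lie at chr11:58199446-58199555 on the plus strand for Igtp, chr11:58214867-58214976 on the plus strand for Irgm2, chr11:48871421-48871530 on the minus strand for Irgm1 and chr3:142530226-142530335 on the plus strand for Gbp7.
Igtp: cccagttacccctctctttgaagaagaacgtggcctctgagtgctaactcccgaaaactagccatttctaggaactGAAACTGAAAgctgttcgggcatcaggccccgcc
Irgm2: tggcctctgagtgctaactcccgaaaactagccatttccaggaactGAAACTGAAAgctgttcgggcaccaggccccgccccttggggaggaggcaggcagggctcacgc
Irgm1: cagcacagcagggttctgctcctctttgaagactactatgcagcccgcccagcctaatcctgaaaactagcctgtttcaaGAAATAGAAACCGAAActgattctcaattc
Gbp7: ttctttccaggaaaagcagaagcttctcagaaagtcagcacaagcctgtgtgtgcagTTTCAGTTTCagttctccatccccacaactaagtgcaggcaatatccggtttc
The capitals begin 34 bases before the start in Igtp, 64 in Irgm2 and 53 in Gbp7, and Irgm1 has 2 overlapping matches. The 3 guanylate-binding protein genes Gbp2b, Gbp3 and Gbp5 also hold the letters, although Gbp2b and Gbp5 overlapped between genotypes, and 1 of the 2 listed starts of Gbp3 has no match. Matches of both motifs do not overlap in the windows shown. A match describes the letters and is not evidence of binding.

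Genes of MHC class I presentation, which shows peptides from inside the cell to CD8 T cells, lay higher in Jak2VF mainly in the loading machinery. Of 19 measured genes, 17 had a positive difference and 8 lay apart, with a median of 0.25. The 12 loading, peptide supply and regulator genes had a median of 0.34 and 7 of the 8, and the 7 class I chains had a median of 0.18 and 1 apart. Nlrc5, the activator of class I transcription, read 6.77, 7.08 and 6.90 in Jak2VF, against 6.13, 6.26 and 6.24 in WT. No array overlapped, and the difference was 0.70 (SE 0.14; limma, adjusted p = 0.696).

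Tap1, a subunit of the peptide transporter, read 8.51, 8.77 and 8.33 in Jak2VF and 7.50, 8.04 and 8.07 in WT, a difference of 0.67 (SE 0.19). Its partner Tap2 differed by 0.48, and Psmb9 and Psme1, parts of the immunoproteasome and of its activator, by 0.53 and 0.42. In each of these the Jak2VF arrays were the higher 3. The response element core was found in 2 of 15 class I promoters (13.3%).

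The regulators and receptors of interferon signalling were closer to the background. Of 17 measured, 13 had a positive difference and 2 lay apart, with a median of 0.17. Irf8 read 6.69, 6.78 and 6.82 in Jak2VF, against 5.89, 6.41 and 5.55 in WT, a difference of 0.81 (SE 0.21), though it was 0.16 on the other probe set of the gene. Irf1 and Batf2 averaged 0.30 and 0.33 more in Jak2VF, with overlap. Cd274, which encodes the checkpoint ligand PD-L1, read 6.98, 7.03 and 6.95 in Jak2VF and 6.63, 6.58 and 6.73 in WT, and its arrays were tight within both genotypes around a difference of 0.34 (SE 0.11).

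Over 38 type I interferon response genes, 29 differences were positive and 9 negative, with a median of 0.21, and 4 lay apart, all higher in Jak2VF. Usp18, which dampens interferon receptor signalling, read 6.74, 6.88 and 7.32 in Jak2VF, against 6.52, 6.24 and 6.00 in WT, a difference of 0.72 (SE 0.19). Zbp1, a sensor of nucleic acids, differed by 0.53 without overlap. The oligoadenylate synthetase genes Oas1g and Oas2 averaged 0.75 and 0.65 more in Jak2VF, but 1 WT array lay among the Jak2VF arrays in each. The response element core was found in 10 of 27 promoters of this list (37%).

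**Figure D2:**
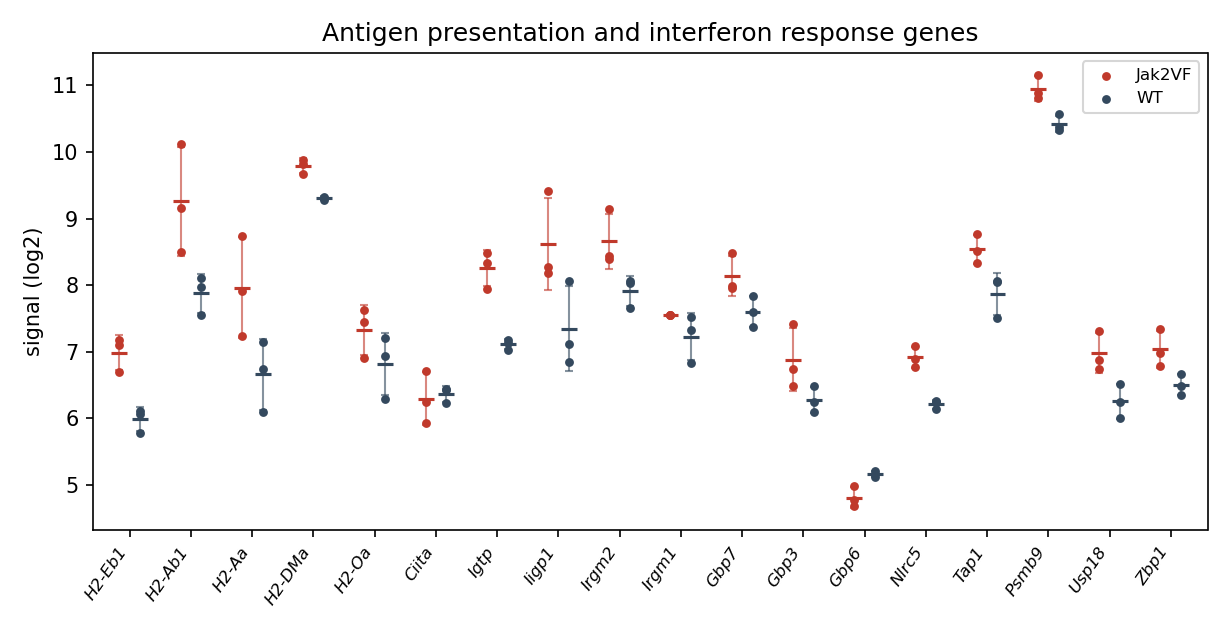
Signal (log2, vertical axis) of 18 genes of antigen presentation and interferon response on the 3 Jak2VF arrays (red, left) and the 3 WT arrays (dark, right). Dots are arrays, short lines are means and error bars are SD. Genotypes are apart for Igtp, H2-Eb1 and Nlrc5, for example, and overlap for H2-Oa and Ciita, and Gbp6 is lower in Jak2VF.

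Genes of megakaryocytes and platelets were read next to Itga2b. Over 35 measured, 24 differences were positive and 11 negative, with a median of 0.16, and 7 lay apart towards higher and 2 towards lower signal in Jak2VF. The positive share of 68.6% was near the 68.5% of genes above the median signal. Gp5, a subunit of the von Willebrand factor receptor, read 7.29, 8.39 and 8.15 in Jak2VF, against 7.01, 7.28 and 6.51 in WT. Jak2VF replicate 1 was only just above WT replicate 2, and the difference was 1.01 (SE 0.30). Plek, the platelet kinase substrate pleckstrin, read 9.10, 9.46 and 9.54 in Jak2VF and 8.45, 8.71 and 8.40 in WT, a difference of 0.84. F2r, the thrombin receptor, read 9.21, 9.64 and 9.77 in Jak2VF and 8.75, 9.06 and 8.23 in WT, a difference of 0.86.

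The list was not uniform. Mmrn1, a factor V-binding protein of platelet granules that is also a stem cell gene, read 6.89, 7.32 and 7.51 in Jak2VF, against 7.97, 7.63 and 8.32 in WT, so that the Jak2VF arrays were the lower ones by 0.73 on average. Pf4, platelet factor 4, averaged 0.58 more and Gp9 0.28 more in Jak2VF, both with overlap, while Vwf, von Willebrand factor, differed by -0.20 with overlap. The summed linear signal of the 35 genes was 7792 to 10270 in Jak2VF and 7123 to 8204 in WT. The median of the list relative to its WT mean was -0.02 on Jak2VF replicate 1 and 0.26 on both other Jak2VF arrays, against -0.06, 0.12 and 0.00 on the WT arrays.

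Mast cell and basophil genes held the highest difference among the named genes. Fcer1a, the alpha chain of the high-affinity IgE receptor, read 6.00, 7.22 and 5.65 in Jak2VF, against 4.51, 4.32 and 5.18 in WT. The difference of 1.62 (SE 0.39) corresponds to 3.08-fold, with Jak2VF replicate 2 far above the others (limma, adjusted p = 0.924). Its mean signal over 9 arrays was below the median of all genes, as it was for 4 of the 6 mast cell and basophil markers. Cpa3, the mast cell carboxypeptidase, read 8.36, 8.36 and 8.91 in Jak2VF and 7.31, 7.71 and 6.29 in WT, a difference of 1.44 (SE 0.36). Mcpt8, a basophil protease, read 7.03, 7.68 and 7.64 in Jak2VF and 6.78, 6.16 and 5.52 in WT, a difference of 1.30 (SE 0.31).

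The positive share of this list, 67.9%, was near the 68.5% of genes above the median signal. Over 28 measured genes of the list, 19 differences were positive and 9 negative, with a median of 0.18, and 8 lay apart towards higher and 1 towards lower signal in Jak2VF. The lower one was Mcpt1, a mucosal mast cell protease, with a difference of -0.63. Ms4a2, the beta chain of the IgE receptor, differed by 0.66 and Hdc, which makes histamine, by 0.27 without overlap, while Cma1, a chymase of mature mast cells, differed by 0.05 with overlap. The summed linear signal of the list was 3877 to 4531 in Jak2VF and 3085 to 3833 in WT, so the genotypes were apart in this sum by a narrow margin. They overlapped in the median of the list relative to its WT mean. It was 0.053, 0.241 and 0.184 on the Jak2VF arrays and 0.059, -0.024 and -0.049 on the WT arrays. Without the genes below the median signal of all genes, the median of the list was 0.47, against 0.09 over all genes above it. That filter uses the mean over 9 arrays, the Jak2VF arrays included, so members high in Jak2VF pass it more easily. Whether cells of this lineage in the sorted population had a part in these values was not tested.

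Genes of multipotent progenitors, the cells next in the hierarchy that the gate is meant to leave out, had one of the most one-sided lists. Over 29 measured, 26 differences were positive and 3 negative, with a median of 0.31, and 7 lay apart, all higher in Jak2VF. Cd48, the surface marker that separates progenitors from stem cells, read 9.04, 9.18 and 9.13 in Jak2VF, against 7.64, 8.82 and 7.30 in WT. The Jak2VF arrays lay within 0.15 of each other, whereas WT replicate 2 was more than 1 unit above the other WT arrays, and the difference was 1.20 (SE 0.32), or 2.30-fold. Cd53, a tetraspanin of leukocytes, read 9.37, 9.18 and 9.64 in Jak2VF and 8.37, 8.82 and 7.25 in WT, a difference of 1.25. Plac8, a gene of early myeloid progenitors, read 10.20, 10.19 and 10.40 in Jak2VF and 9.47, 9.81 and 9.04 in WT, a difference of 0.83 (SE 0.19).

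The summed linear signal of the progenitor list was 11280 to 12820 in Jak2VF and 7027 to 11310 in WT, which overlapped at WT replicate 2. Its median relative to the WT mean was 0.10, 0.34 and 0.47 on the Jak2VF arrays and -0.03, 0.25 and -0.16 on the WT arrays. The part of progenitors in the sorted cells in any other difference was not tested.

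Genes of neutrophil granules and early myeloid cells gave 6 of 28 members apart, all higher in Jak2VF, with 19 positive and 9 negative differences and a median of 0.06. The positive share of 67.9% was near the 68.5% of genes above the median signal. Without the genes below the median signal of all genes, the median of the list was 0.59, against 0.09 over all genes above it. This filter uses the mean over 9 arrays, the Jak2VF arrays included, so members high in Jak2VF pass it more easily. Nkg7, a granule membrane protein, read 9.62, 10.13 and 9.82 in Jak2VF, against 8.85, 9.47 and 8.86 in WT, a difference of 0.80. Serpinb1a, an inhibitor of neutrophil proteases, read 8.62, 8.64 and 9.07 in Jak2VF and 8.15, 8.28 and 8.22 in WT, a difference of 0.56 (SE 0.14). Ctsg, the protease cathepsin G, read 7.97, 8.76 and 8.67 in Jak2VF and 6.81, 8.11 and 6.13 in WT, and its difference of 1.45 came with overlap at WT replicate 2. Ly6g, the marker of mature neutrophils, read 5.45, 4.15 and 3.83 in Jak2VF and 3.42, 3.83 and 6.67 in WT, with 1 high array in each genotype.

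**Figure D3:**
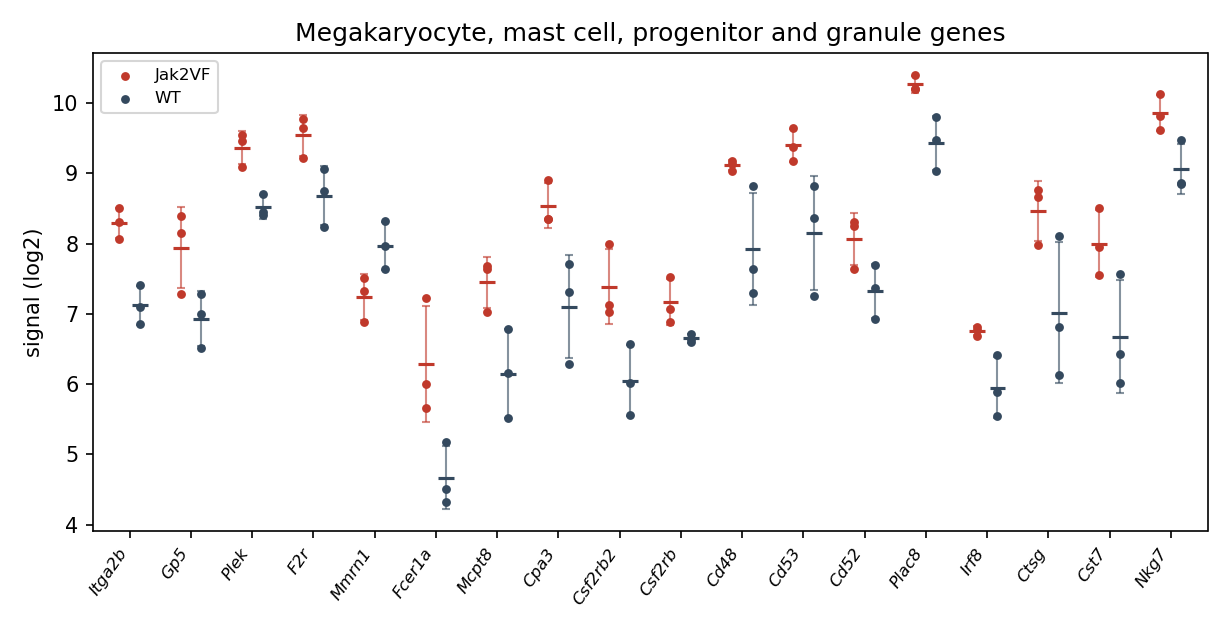
Signal (log2, vertical axis) of 18 megakaryocyte, mast cell, progenitor and granule genes on the 3 Jak2VF arrays (red, left) and the 3 WT arrays (dark, right). Dots are arrays, short lines are means and error bars are SD. The Jak2VF arrays lie above the WT arrays for Itga2b, Plek and Cpa3, below them for Mmrn1, and overlap with WT replicate 2 for Ctsg.

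Erythroid genes did not separate the genotypes, although JAK2 is the kinase of the erythropoietin receptor. Over 28 measured, 13 differences were positive and 15 negative, with a median of -0.03, and 1 lay apart. That one was Tfrc, the transferrin receptor, which read 8.39, 8.998 and 8.01 in Jak2VF, against 6.89, 7.85 and 7.95 in WT, a difference of 0.90 (SE 0.31). Replicates within a genotype differed more than the genotypes. The median of the list relative to its WT mean was -0.37, 0.34 and -0.11 in Jak2VF and -0.24, 0.31 and -0.07 in WT, and replicate 2 was the highest in both. Klf1, the master erythroid transcription factor, read 6.41, 7.82 and 6.62 in Jak2VF and 6.71, 7.60 and 6.78 in WT. Of 20 genes of heme synthesis and iron handling, 1 lay apart, the terminal enzyme gene Fech with a difference of 0.43.

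Stem cell genes had more members apart towards lower than towards higher signal in Jak2VF. Over 90 measured, 37 differences were positive and 53 negative, with a median of -0.04. The Jak2VF arrays lay above the WT arrays in 7 and below them in 16. Mecom, a transcription factor gene required for long-term stem cells, read 6.91, 7.09 and 7.16 in Jak2VF, against 7.90, 7.55 and 7.83 in WT. The difference was -0.71 (SE 0.15) on this probe set and -0.60 on the other (limma, adjusted p = 0.863). Mllt3, a regulator of stem cell maintenance, read 7.46, 7.25 and 7.55 in Jak2VF and 8.04, 7.97 and 7.94 in WT, a difference of -0.56 (SE 0.13).

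Of the stem cell markers, Procr, the endothelial protein C receptor, read 7.25, 7.01 and 7.18 in Jak2VF, against 7.97, 7.57 and 7.81 in WT, a difference of -0.64. Hlf, a transcription factor of stem cells, read 8.16, 7.91 and 8.12 in Jak2VF and 8.53, 8.28 and 8.57 in WT, a difference of -0.40. Both were lower on every Jak2VF array, and Plag1, Emcn, Sult1a1, Bex1 and Mmrn1, described above, belong to the same list. The homeobox gene Meis1, the adhesion gene Esam, the SLAM marker Slamf1, Hoxb5, Fgd5 and Kit differed by -0.05, -0.03, -0.02, 0.16, -0.34 and 0.08 with overlap.

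Other stem cell genes read higher on the Jak2VF arrays. Clca3a1, a gene of the chloride channel accessory family, read 6.46, 7.50 and 6.80 in Jak2VF, against 5.46, 4.93 and 6.31 in WT, a difference of 1.35 (SE 0.34). Tgfbr3, the TGF-beta coreceptor betaglycan, read 7.42, 7.82 and 7.48 in Jak2VF and 7.05, 7.13 and 7.08 in WT, a difference of 0.49 (SE 0.13). The median of the whole list relative to its WT mean was -0.18, -0.02 and 0.03 in Jak2VF and -0.03, 0.02 and -0.01 in WT, so the list did not separate the genotypes as a whole.

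Imprinted and growth control genes, a network that is active in quiescent stem cells, had mostly negative differences. Over 19 measured, 6 differences were positive and 13 negative, with a median of -0.15, and 1 lay apart towards higher and 4 towards lower signal in Jak2VF. These counts depend on the probe set chosen. Plagl1, a zinc finger gene related to Plag1, differed by -0.32 with overlap on the counted probe set and by -1.41 on its other, dimmer one. Besides Plag1, Grb10, an adaptor that restrains growth factor signalling, read 6.39, 6.68 and 6.35 in Jak2VF, against 6.88, 7.22 and 6.98 in WT, a difference of -0.55 (SE 0.19). Igf2r, which clears the growth factor IGF2, read 5.30, 5.63 and 5.72 in Jak2VF and 5.91, 5.93 and 6.01 in WT, a difference of -0.40 (SE 0.13). Gpc3, a glypican, was the member apart towards higher signal, with 5.37, 5.23 and 5.26 in Jak2VF and 4.60, 4.86 and 4.60 in WT, a difference of 0.60 (SE 0.13).

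**Figure D4:**
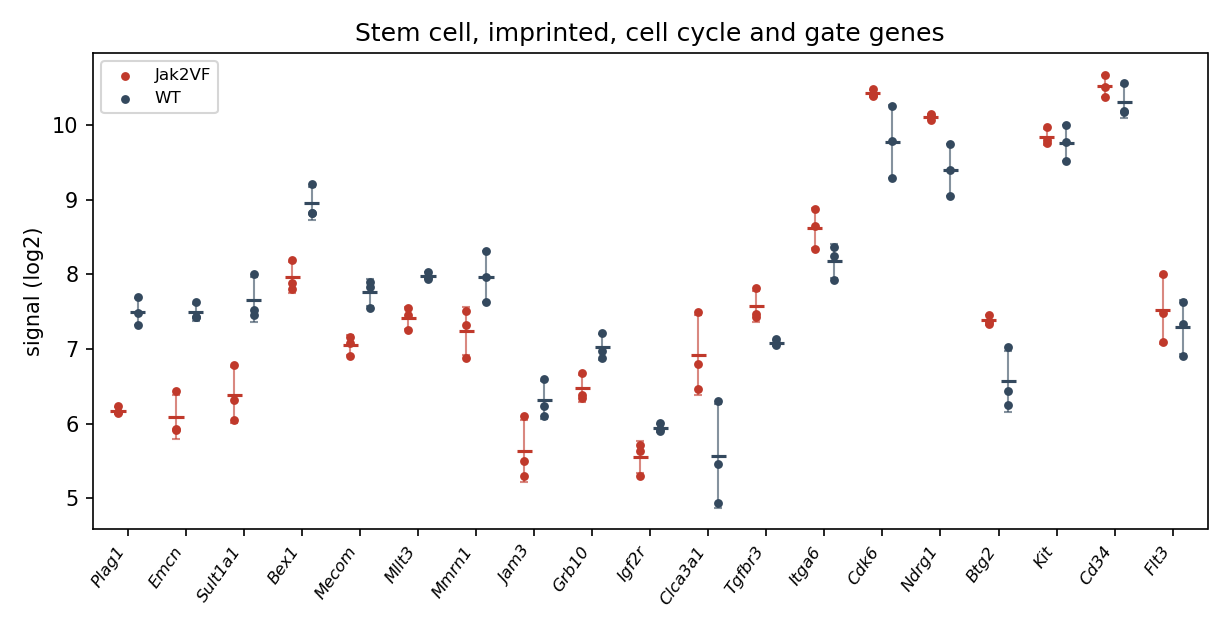
Signal (log2, vertical axis) of 19 stem cell, imprinted, cell cycle and gate genes on the 3 Jak2VF arrays (red, left) and the 3 WT arrays (dark, right). Dots are arrays, short lines are means and error bars are SD. Plag1, Emcn and Mllt3 are lower and Cdk6 and Ndrg1 higher on every Jak2VF array, and Kit, Cd34 and Flt3 overlap.

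Cell cycle genes had positive differences in nearly every member, by amounts that depended on the array. Over 77 measured, 73 differences were positive and 4 negative, with a median of 0.27, while 2 lay apart. The median relative to the WT mean was 0.16, 0.64 and -0.05 on the Jak2VF arrays, against -0.31, 0.30 and 0.03 on the WT arrays. The genotypes overlapped, and replicate 2 was the highest in both. The median difference was 0.08 without Jak2VF replicate 2 and 0.42 without WT replicate 2. Cdk6, a kinase that helps stem cells to leave quiescence, read 10.40, 10.49 and 10.40 in Jak2VF and 9.29, 10.26 and 9.79 in WT, a difference of 0.65 (SE 0.21), and was apart. Tacc3, a spindle protein, averaged 0.66 more in Jak2VF with overlap at WT replicate 2.

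DNA repair and histone genes had the same order of arrays within each genotype as the cell cycle genes, and the genotypes overlapped. Of 38 repair genes, 32 had a positive difference, with a median of 0.17 (0.02 without Jak2VF replicate 2), and 2 lay apart. The median of this list relative to its WT mean was 0.54 on Jak2VF replicate 2 and 0.20 on WT replicate 2, the highest array of each genotype. Rec8, a cohesin subunit of meiosis, differed most, with 6.46, 6.71 and 7.18 in Jak2VF, against 5.78, 5.71 and 5.82 in WT, a difference of 1.02 (SE 0.19; limma, adjusted p = 0.589). Of 14 histone genes, 11 had a positive difference, with a median of 0.46 (0.21 without Jak2VF replicate 2), and the median relative to the WT mean was 0.39, 0.74 and -0.02 on the Jak2VF arrays and -0.29, 0.23 and 0.03 on the WT arrays. H4c9, a histone H4 gene, read 7.28, 7.75 and 7.51 in Jak2VF and 6.36, 6.78 and 7.06 in WT, a difference of 0.78 without overlap.

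Inhibitors of the cell cycle and p53 targets had mostly positive differences, in a share near the 68.5% of genes above the median signal. Of 32 measured, 22 had a positive difference, with a median of 0.12, 2 lay apart towards higher and 1 towards lower signal. Btg2, an antiproliferative gene that is also an immediate early gene, read 7.36, 7.46 and 7.34 in Jak2VF, against 6.43, 7.03 and 6.24 in WT, a difference of 0.82 (SE 0.26). Cdkn1a and Cdkn1b, which encode the inhibitors p21 and p27, averaged 0.33 and 0.45 more in Jak2VF with overlap.

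Immediate early and heat shock genes, which respond to the handling of cells, had 27 positive and 3 negative differences among 30, with a median of 0.24 and 2 apart. Their median relative to the WT mean was -0.02, 0.35 and 0.20 on the Jak2VF arrays and -0.03, 0.14 and -0.23 on the WT arrays, which overlapped. Junb and Ier3, transcription and survival factors of this class, averaged 0.27 and 0.31 more in Jak2VF with overlap. The part of handling in other differences was not tested.

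Signals from the niche and from inflammation were read through 2 further lists. Of 36 TGF-beta and SMAD genes, 23 had a positive difference, with a median of 0.05, and 5 lay apart, all higher in Jak2VF. Tgfb1, the ligand that holds stem cells in quiescence, read 9.12, 9.72 and 9.07 in Jak2VF, against 8.57, 9.04 and 8.89 in WT, a difference of 0.47. Acvr2a, an activin receptor, differed by 0.35 without overlap, and Smad1, a BMP effector, by 0.43 with overlap. Of 49 inflammation and NF-kB genes, 30 had a positive difference, with a median of 0.06, and 7 lay apart towards higher and 1 towards lower signal. Tnfsf10, the death ligand TRAIL, differed by 0.42 and Rnf19b, a ubiquitin ligase, by 0.62 (SE 0.13), both apart, and Tlr4, the receptor for endotoxin, by -0.37, also apart.

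Metabolic and housekeeping lists also had more positive than negative differences, to unequal degrees. Over all genes 55.8% of differences were positive and the median was 0.03, and over genes above the median signal 68.5% and 0.09. In glycolysis and hypoxia genes 21 of 31 had a positive difference, with a median of 0.11, and 2 lay apart towards higher and 1 towards lower signal. Ndrg1, a stress and hypoxia gene, read 10.07, 10.14 and 10.12 in Jak2VF, against 9.05, 9.75 and 9.40 in WT, a difference of 0.71 (SE 0.17) and of 0.75 on its other probe set. Hk1, a hexokinase, differed by 0.35 without overlap. Unfolded protein response genes had 23 positive differences of 28 (82.1%) and a median of 0.16, and antioxidant genes 24 of 32 (75%) and 0.11. Oxidative phosphorylation genes had 39 of 55 and 0.10, and ribosomal protein genes 35 of 58 and 0.03. Without Jak2VF replicate 2 the medians were 0.00 for glycolysis, 0.07 for unfolded protein response, 0.02 for antioxidant, -0.02 for oxidative phosphorylation and -0.01 for ribosomal protein genes.

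Among epigenetic regulators 0 of 44 lay apart in either direction, with 33 positive differences and a median of 0.12. With WT replicate 1 left out this median was 0.03, and with WT replicate 2 left out 0.21. Ezh2, the methyltransferase of Polycomb repressive complex 2, read 8.87, 9.09 and 8.78 in Jak2VF, against 8.48, 8.81 and 8.69 in WT, and the arrays overlapped around a difference of 0.25. Asxl1 and Idh2, genes that are mutated alongside JAK2 in myeloproliferative neoplasms, averaged 0.31 and 0.52 more in Jak2VF, with overlap.

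**Figure D5:**
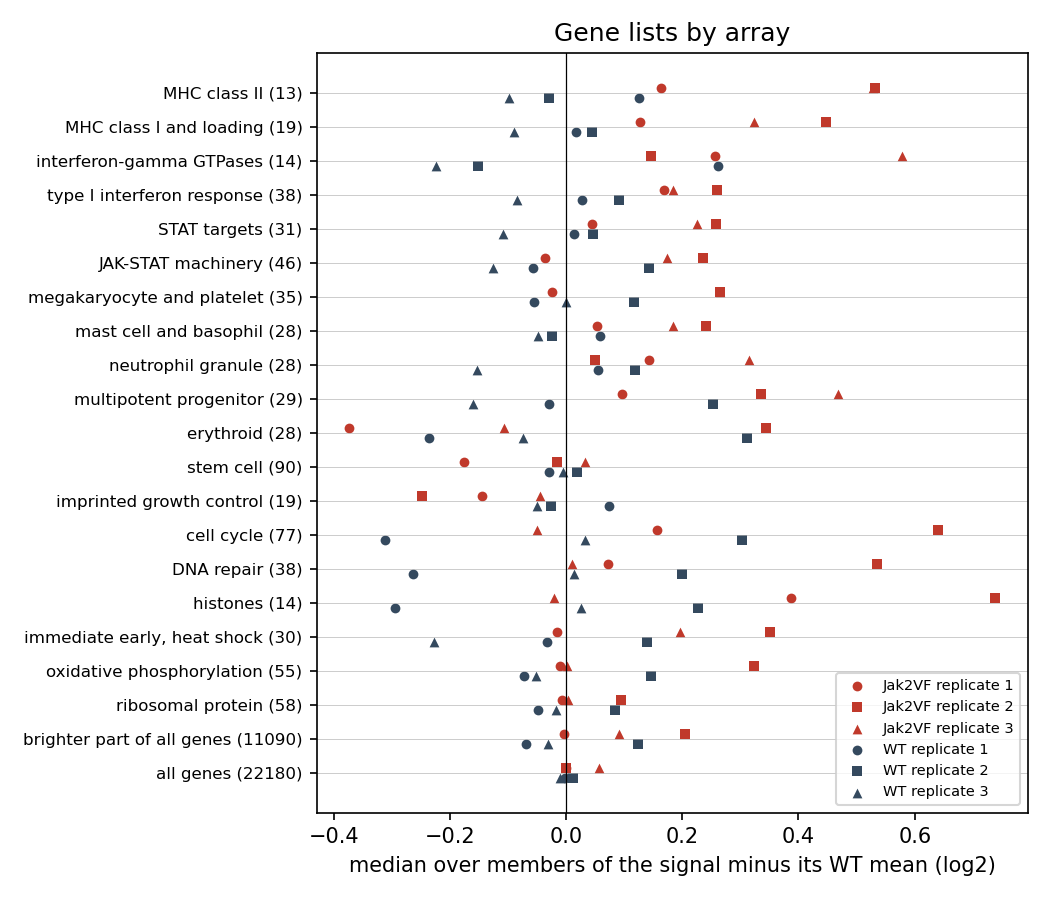
Median over the members of a gene list of the signal minus its WT mean (log2, horizontal axis) for each Jak2VF array (red) and WT array (dark), with marker shapes for replicates and the number of measured genes in brackets. Replicate 2 is the highest of its genotype for cell cycle and erythroid genes, and the genotypes are apart for class II, class I and type I interferon genes.

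The medians of these lists moved when single arrays were left out. With each of the 6 arrays left out in turn, the lowest and highest median difference were 0.26 (without WT replicate 3) and 0.54 (without Jak2VF replicate 1) for class II genes and 0.17 (without Jak2VF replicate 2) and 0.37 (without Jak2VF replicate 1) for class I genes. They were 0.16 (without WT replicate 3) and 0.35 (without WT replicate 1) for the GTPases and 0.15 (without Jak2VF replicate 2) and 0.28 (without WT replicate 2) for type I interferon genes. Progenitor genes kept a median between 0.23 and 0.38, STAT targets between 0.08 and 0.19 and interferon regulators between 0.13 and 0.25. Megakaryocyte genes gave 0.09 without Jak2VF replicate 2 and 0.29 without Jak2VF replicate 1, and JAK-STAT genes 0.06 without Jak2VF replicate 3 and 0.22 without Jak2VF replicate 1. For erythroid genes the median lay on both sides of 0, at -0.24 without Jak2VF replicate 2 and 0.15 without Jak2VF replicate 1, and so did that of the monocyte, macrophage and dendritic genes, at -0.05 without Jak2VF replicate 3 and 0.13 without Jak2VF replicate 2. For stem cell genes it lay between -0.10 and 0.00, and for imprinted genes between -0.25 (without Jak2VF replicate 3) and -0.08 (without Jak2VF replicate 1). It lay between 0.14 (without WT replicate 3) and 0.34 (without WT replicate 2) for immediate early and heat shock genes, between 0.07 and 0.18 with the same arrays left out for cell cycle inhibitors and p53 targets, between 0.03 and 0.09 for TGF-beta genes and between 0.01 (without Jak2VF replicate 3) and 0.11 (without Jak2VF replicate 1) for inflammation genes.

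Some medians also moved with other choices. Without the genes below the median signal of all genes, the median of the GTPases was 0.57 and that of TGF-beta genes 0.25, besides the mast cell and granule lists given above. Over all genes above the median signal it was 0.09. Since the filter takes in the Jak2VF arrays, these medians depend in part on the difference itself. With quantile normalization, the median was 0.07 for JAK-STAT genes and 0.06 for epigenetic regulators.

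The genes beside Jak2 on chromosome 19 were read because the mutant allele lies at this locus, and the order is that of protein-coding genes in GRCm38.p6. Insl6, the next gene, encodes a relaxin-like peptide that is known from the testis. It read 6.79, 7.11 and 7.50 in Jak2VF, against 6.02, 6.27 and 5.19 in WT, a difference of 1.31 (SE 0.27), or 2.47-fold (limma, adjusted p = 0.861). The Jak2VF_Ezh2KO arrays, which carry the same Jak2 allele, read 7.40, 7.44 and 7.37, also above all WT arrays. Of the other 8 measured genes within 5 steps, 1 lay apart, Cd274, 4 steps away, and the differences of the 8 lay between -0.10 for Plpp6 and 0.34 for Cd274. Rcl1, the neighbour on the other side, differed by 0.24 with overlap.

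The neighbours of Plag1 and Itga2b had smaller differences than these genes themselves. Of 8 measured within 5 steps of Plag1, differences lay between -0.16 for Chchd7 and 0.40 for Tmem68, and 1 lay apart in each direction. Tgs1, 4 steps away, read 8.80, 8.97 and 8.71 in Jak2VF, against 8.11, 8.58 and 8.67 in WT, a difference of 0.38 without overlap. Chchd7, which adjoins Plag1, read 7.73, 7.70 and 7.84 in Jak2VF, against 7.87, 7.97 and 7.93 in WT, a difference of -0.16 that was small although the arrays were apart. Of 10 measured around Itga2b, 0 lay apart and differences lay between -0.21 for Adam11 and 0.24 for Grn, with 0.11 and 0.09 for the adjoining Fam171a2 and Gpatch8. In Jak2VF_Ezh2KO, which shares the WT arrays of this comparison, Plag1 read 7.67, 8.22 and 8.50 and Itga2b 7.08, 6.59 and 6.85, whereas Igtp read 7.95, 8.10 and 8.54 and Mcpt8 8.61, 8.02 and 8.53.

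Further genes with the largest separate differences belonged to no single list. Mfsd2b, a sphingosine-1-phosphate exporter of red cells and platelets, read 8.25, 9.13 and 8.55 in Jak2VF, against 7.02, 8.07 and 7.07 in WT, a difference of 1.26 (SE 0.29). Ccl9, a chemokine of myeloid cells, read 8.34, 8.82 and 9.04 in Jak2VF and 6.94, 7.96 and 7.61 in WT, a difference of 1.23. Towards lower signal, Tspan6, a tetraspanin, read 6.15, 6.30 and 6.21 in Jak2VF and 7.51, 7.01 and 6.81 in WT, a difference of -0.89 (SE 0.20).

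Others in this direction were less even. Oog1, a gene known from oocytes, read 6.40, 6.03 and 5.80 in Jak2VF, against 8.46, 6.77 and 7.70 in WT, a difference of -1.57 (SE 0.39) and of -0.71 on its other probe set. Fbp1, the gluconeogenic enzyme fructose bisphosphatase, read 5.70, 5.82 and 5.78 in Jak2VF and 7.46, 7.23 and 5.83 in WT, so that WT replicate 3 was at the level of the Jak2VF arrays. Its difference was -1.07. Hid1, Abcg3, Zfp119a, Klf12, Mamdc2, Cyp2c38 and Plac8l1 lay apart with differences between -1.09 for Cyp2c38 and -0.79 for Mamdc2.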

How the data were processed

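The data were log2 values of 41345 probe sets from mouse gene arrays, as deposited by the authors, and the submitters' processing notes name Partek 6.6. Per the labels' protocols, 10 ng of RNA was amplified and labelled with biotin. How the arrays were normalized, and the genome build, are not stated, and no further normalization was applied. The platform annotation gave 23521 probe sets a single symbol, 1814 more than 1 symbol and 16010 none, and 1082 genes with more than 1 probe set were represented by the brightest over 9 arrays.

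All 9 arrays were fitted with limma 3.58.1 in R 4.3.3 (lmFit, eBayes without trend; 6 residual and 3.83 prior degrees of freedom), and p-values were Benjamini-Hochberg adjusted over 22180 genes. The fit was tested on simulated data. Sex was not in the fit. On the Jak2VF_Ezh2KO arrays, the sex-linked gene Eif2s3y read 7.54, 8.18 and 3.73 and Kdm5d 6.44, 6.60 and 3.91. On the 6 compared arrays both read between 3.34 and 4.48. With 3 arrays per group, the number of arrays limits the precision. Fold changes are powers of 2 of the difference.

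Members and the 38 gene lists (1225 genes, 1080 measured) were chosen with earlier results of these data known, and lists received no test. Leaving out predicted, RIKEN, small RNA, odorant and pheromone receptor, and immunoglobulin or T cell receptor segment genes, those named were drawn from the following sets. The sets were the 12 genes each way with the largest difference among brighter genes whose groups were apart, the 10 each way with the smallest p, up to 5 per list by p, and all gate, class II and GTPase genes with Jak2, Ezh2 and chosen STAT targets. Not every gene of these sets is described in the text. Fixed cell markers and the neighbours of Jak2, Plag1 and Itga2b were added, the neighbours after values were seen. Promoters came from RefSeq (GRCm38.p6). Some genes are not analysed here. Alternatives were other variance models, scalings, filters, probe set rules, array weights, the replicate number as a block, and each array left out.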

Additional observations from a re-analysis of the deposited data

How the results depend on the processing

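The count of 0 genes at an adjusted p under 0.05 was the same under every alternative run, with a smallest adjusted p between 0.0551 (without WT replicate 3) and 1, and with 1034 genes at an unadjusted p under 0.05 in the fit as reported. An adjusted threshold of 0.5 gave 10 genes. Genes at an unadjusted p under 0.05 numbered 336 to 1466 higher and 256 to 904 lower with 1 array left out, genes apart 1375 to 3264 higher and 990 to 2013 lower, since fewer arrays separate more easily. Quantile normalization gave 1357 genes apart towards higher signal. Without the dimmer part of the genes, 535 were higher and 147 lower at an unadjusted p under 0.05, against 632 and 402 in the fit as reported. Genes apart numbered 580 higher and 226 lower, against 786 and 569, so the counts of lower genes fell more than those of higher genes. Over every probe set, named or not, 796 were lower at an unadjusted p under 0.05, and 1469 and 1301 lay apart towards higher and lower signal. Deviations of same-numbered Jak2VF and WT samples from their genotype means correlated at 0.21, 0.48 and -0.23. The 0.48 of replicate 2 was the highest of all pairings of the 2 genotypes. WT replicate 2 and Jak2VF replicate 2 also had the highest correlation over genes of all array pairs, 0.983. Whether samples of the same number share a factor was not tested. The fit with the replicate block gave 714 higher and 464 lower at an unadjusted p under 0.05 and 0 called. Of 102 named genes with groups apart, 0 reversed in 1517 values under alternatives. Once the groups are apart, leaving out or weighting arrays or changing the variance model cannot reverse a difference. This count is therefore no measure of how firm these genes are. Of 38 list medians, 10 changed sign with 1 array left out. Signals near the level of the receptor genes limit what can be read of dim genes.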

Other observations

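Lymphoid genes not described so far gave 0 of 25 B lymphoid genes apart and 2 higher and 1 lower among 30 T and NK genes, with medians of -0.01 and -0.09. Ighm, the immunoglobulin heavy chain constant gene, was split within both genotypes, at 10.64, 10.87 and 7.50 in Jak2VF and 7.43, 10.00 and 7.45 in WT. Thy1, a surface protein of T cells that part of the progenitors also carry, read 6.84, 6.82 and 7.11 in Jak2VF, against 5.96, 6.58 and 6.06 in WT, a difference of 0.72 (SE 0.17). Its arrays were apart. Dntt, the polymerase of early lymphoid progenitors, overlapped around a difference of 0.49.

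Genes of adhesion and the niche had 23 positive and 12 negative differences among 35, with a median of 0.06. Itgb7, an integrin chain of homing, read 6.25, 6.61 and 6.94 in Jak2VF, against 5.98, 5.99 and 5.93 in WT, a difference of 0.63 (SE 0.18), and S1pr3, a sphingosine-1-phosphate receptor, read 5.46, 6.07 and 5.72 in Jak2VF and 4.97, 5.29 and 4.80 in WT, a difference of 0.73 (SE 0.18). Both were apart. Of 30 Hox genes, 2 lay apart towards higher and 1 towards lower signal, with a median of -0.05, and Hoxa7 and Hoxa4 differed by 0.34 and -0.33. Stroma and endothelial genes had 8 positive and 15 negative differences among 23, with a median of -0.04, and included Pdgfrb, a receptor of mesenchymal cells, at 7.29, 7.27 and 7.78 in Jak2VF and 6.17, 7.23 and 6.21 in WT.

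Abcg1, a cholesterol exporter, differed by 0.50 without overlap among 23 cholesterol and lipid genes with a median of 0.09. Outside the naming rule, and picked after the values were seen, the small nucleolar RNA gene Snord13 had the largest positive difference of all genes with groups apart (2.25, SE 0.48).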
